A study of Homo sapiens with 6 samples.

Results

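The 10 genes described here make and attach sialic acid. They were taken by symbol from the deposited gene tables as the listed sialic acid synthesis and sialyltransferase genes, and all 10 were found among the 16279 genes of the tables. All 10 also passed edgeR's filter on low counts, which kept 13311 genes for testing. RNA came from 12Z, an established human endometriotic epithelial cell line, so that every library is of 1 line and describes no other cells. The cells were left untreated (Control, 3 libraries) or received 10 ng/mL rhChem157S, the recombinant active form of the adipokine chemerin, for 48 h (3 libraries). No genetic change separates the groups. The question for these genes is whether transcripts of the sialylation machinery differed between treated and untreated cells.

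Sialic acids are acidic sugars that cap the glycan chains of glycoproteins and glycolipids at the cell surface. Cells make the common form, N-acetylneuraminic acid, from UDP-GlcNAc in the cytosol, activate it to CMP-sialic acid in the nucleus, and import that donor into the Golgi. There the sialyltransferases attach it through an alpha2,3 or an alpha2,6 linkage, and lectins that read these linkages are used to follow surface sialylation, including on the endometrial epithelium that faces the embryo.

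The libraries held 35430881 to 38341643 counts on genes, so that 1 count in the smallest library was 0.0282 CPM and 3 counts were 0.0847 CPM. The members were counted from 125 times (ST6GAL1) to 4153 times (ST3GAL1) per library, well above that floor, and intervals below come from the fit across libraries. Among the markers of the labelled cell type, the keratins KRT8, KRT18 and KRT19 were abundant, while EPCAM and CDH1, which encode epithelial adhesion proteins, were close to absent in all 6 libraries. The summed level of 7 epithelial markers ran from 1596 to 1866 FPKM in Control and from 1760 to 1976 FPKM with rhChem157S, nearly all of it keratins. Lower with rhChem157S, with groups apart on FPKM, were EPCAM (0.387 to 0.807 against 0.125 to 0.277 FPKM), CDH1 (0.238 to 0.381 against 0.0859 to 0.201 FPKM) and MUC1 (10.2 to 14.4 against 6.79 to 9.85 FPKM). Of the 7 epithelial markers, 4 had a log2 fold change above 0 and 3 below 0, with a median of 0.08. The 3 below 0 were EPCAM (-1.46), CDH1 (-1.14) and MUC1 (-0.57), and the highest of the 4 above 0 was KRT8 (0.29). On CPM scaled by TMM, explained below, the groups of EPCAM and CDH1 stayed apart and those of MUC1 overlapped. On that scale KRT8 and KRT19 were higher with groups apart, at log2 fold changes of 0.29 and 0.27. The groups of both keratins overlapped on FPKM. The sum of 7 stromal markers ran from 2588 to 2949 FPKM and from 3661 to 4349 FPKM, and that separation was carried by VIM alone. Without VIM the sums of the other 6 were 1598 to 2068 FPKM and 1102 to 2154 FPKM, which overlap. Of 5 leukocyte markers, 3 were in the tables, with sums of 37.0 to 51.6 FPKM in Control and 6.88 to 21.3 FPKM with rhChem157S that were nearly all CD14, while the defining marker PTPRC stayed at or under 0.0535 FPKM. The sum of 4 endothelial markers was low in both groups, at 1.61 to 2.01 FPKM in Control and 0.991 to 1.41 FPKM with rhChem157S, with VWF at 0.352 to 0.508 and 0.0394 to 0.189 FPKM. The part of these marker differences in the results for the members was not tested. The library rhChem157S replicate 3 stood apart. It was the lowest of the 6 libraries for 32.2% of the tested genes and the highest for 34.1%, and it was the lowest for 4 members and the highest for 2. The plot of log2 fold changes therefore shows every member without it as well. In bulk RNA, fewer cells that express a gene and less RNA per cell cannot be told apart.

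None of the 10 genes passed an adjusted p of 0.05 in edgeR's quasi-likelihood test, against 4 of the 13311 tested genes (0.0301%). DESeq2 called none of them either, against 1319 of the 14066 genes to which it gave an adjusted p (9.38%). At an unadjusted p under 0.05, edgeR passed 1 member, ST6GAL1, against 22.8% of all tested genes. On CPM scaled by TMM, which corrects each library for its composition, every rhChem157S library lay below every Control library for 3 members, GNE, ST3GAL1 and ST6GAL1, against 16.0% of all tested genes. Every treated library lay above every Control library for 1 member, CMAS, against 16.5% of all tested genes. These shares rest on 10 genes. Of the members, 6 had a log2 fold change below 0 and 4 above 0, with a median of -0.14. Over all tested genes 48.3% were below 0 and the median was 0.01. Library by library, the median over the members of the log2 difference from the Control mean was -0.03, -0.04 and 0.07 in Control and -0.10, 0.03 and -0.09 with rhChem157S, so that the groups overlapped.

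**Figure D1:**
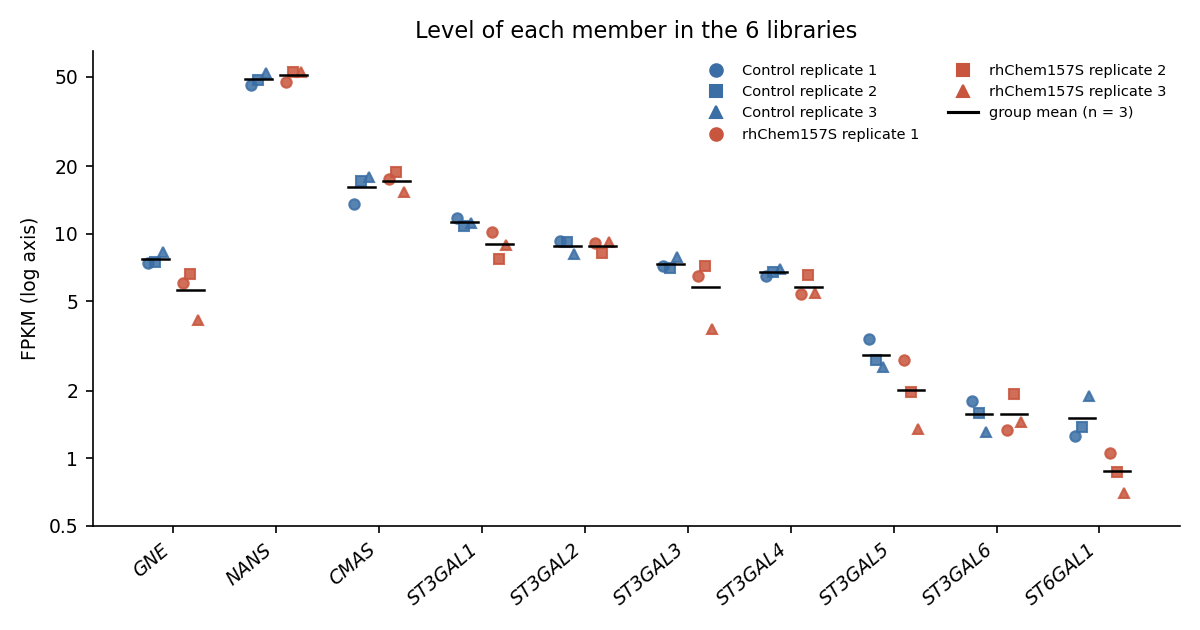
Level of each of the 10 genes in FPKM on a log axis, with Control libraries in blue, rhChem157S libraries in red, a marker shape for each replicate number and a black bar for the group mean (n = 3). Levels span from 0.700 FPKM (ST6GAL1) to 52.7 FPKM (NANS), and rhChem157S replicate 3, the red triangle, is the lowest point for GNE, ST3GAL3, ST3GAL5 and ST6GAL1.

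The members differed widely in level on FPKM, which divides counts by gene length and library total. In Control cells the order was NANS, CMAS, ST3GAL1, ST3GAL2, GNE, ST3GAL3, ST3GAL4, ST3GAL5, ST3GAL6 and ST6GAL1. The Control ranges of ST3GAL2 and GNE overlapped, as did those of GNE and ST3GAL3 and those of ST3GAL6 and ST6GAL1, and the other neighbours were apart in every Control library. The synthesis enzymes NANS and CMAS thus led the order, and ST6GAL1, the alpha2,6-sialyltransferase of the set, was the least abundant. By group mean, GNE was at rank 7 with rhChem157S against rank 5 in Control. By mean, ranks 1 to 4 and 8 to 10 were held by the genes that held them in Control. The treated means of ST3GAL3, ST3GAL4 and GNE were close, at 5.82, 5.80 and 5.60 FPKM, and their treated ranges overlapped. The treated ranges of ST3GAL1 and ST3GAL2 also overlapped, as did those of ST3GAL5 and ST3GAL6.

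The synthesis genes open the pathway. GNE (chr9:36214441-36277056, minus strand, GENCODE release 29 on GRCh38) encodes the bifunctional epimerase and kinase that commits UDP-GlcNAc to sialic acid and is inhibited by the end product CMP-sialic acid. Its level was 7.43, 7.47 and 8.32 FPKM in Control replicates 1 to 3 and 6.06, 6.63 and 4.11 FPKM in rhChem157S replicates 1 to 3. The highest treated value was under the lowest Control value, and treated replicate 3 was the lowest of all. The group means were 7.74 ± 0.500 and 5.60 ± 1.32 FPKM (SD, n = 3). GNE had a log2 fold change of -0.35 (SE 0.15, 95% interval -0.70 to 0.01, edgeR adjusted p = 0.228). Without rhChem157S replicate 3 it was -0.20, and leaving out other single libraries gave values down to -0.48.

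NANS (chr9:98056739-98083075, plus strand) encodes the synthase that condenses the phosphorylated precursor with phosphoenolpyruvate. It was the most abundant member, at 46.2, 48.6 and 52.3 FPKM in Control and 47.7, 52.7 and 52.7 FPKM with rhChem157S. The groups overlapped. The means were 49.0 ± 3.09 and 51.0 ± 2.88 FPKM, and the log2 fold change was 0.19 (SE 0.10, 95% interval -0.05 to 0.43, edgeR adjusted p = 0.302). It was 0.12 without rhChem157S replicate 3. In its annotation, 422 of the 4922 exonic bases of NANS are shared with TRIM14 on the opposite strand, and without the strand setting of the counting the reads of these bases cannot be told apart. The FPKM imply a shorter counted length of 1483 bases for NANS, so whether the shared bases were counted is not known.

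CMAS (chr12:22046174-22065674, plus strand) encodes the nuclear enzyme that couples sialic acid to CMP and so makes the donor that every sialyltransferase uses. Its level was 13.6, 17.1 and 17.9 FPKM in Control and 17.6, 18.8 and 15.4 FPKM with rhChem157S, which overlap. After TMM scaling every treated library was above every Control library, so the separation of CMAS depends on the scaling. Its means were 16.2 ± 2.28 and 17.3 ± 1.74 FPKM, and the log2 fold change was 0.22 (SE 0.13, 95% interval -0.07 to 0.51, edgeR adjusted p = 0.324). Without Control replicate 1, its lowest library, it was 0.12.

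The first enzyme and the next one in the pathway thus had log2 fold changes of opposite sign. The ratio of their levels was taken after that was seen, so it restates these values and is given as a description. NANS over GNE in FPKM was 6.21, 6.50 and 6.29 in Control and 7.88, 7.95 and 12.8 with rhChem157S. This ratio does not depend on library scaling. The means were 6.33 ± 0.149 and 9.55 ± 2.83. Their difference was 3.21 with all libraries and 1.58 without rhChem157S replicate 3.

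The sequences upstream of these 2 genes are shown because they stand next to each other in the pathway and had estimates of opposite sign, neither past the test. RefSeq on GRCh38.p14 gives GNE 2 starts and NANS 1. Each run below is the stretch within 250 bases before a start that lies outside the gene's own GENCODE exons, read 5′ to 3′ on the gene's strand, with capitals marking GGGCGG (the GC box, bound by Sp factors) and CCAAT (the CCAAT box, bound by NF-Y) on either strand, which cannot overlap each other except at their ends. The first GNE run is chr9:36277057-36277228, minus strand, before the gene. The second is chr9:36258500-36258698, minus strand, inside the gene between exons. The NANS run is chr9:98056482-98056731, plus strand, before the gene.
GNE upstream start: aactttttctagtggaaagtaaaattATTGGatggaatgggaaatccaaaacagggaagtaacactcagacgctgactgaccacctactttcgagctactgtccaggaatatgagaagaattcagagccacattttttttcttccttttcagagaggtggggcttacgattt
GNE inner start: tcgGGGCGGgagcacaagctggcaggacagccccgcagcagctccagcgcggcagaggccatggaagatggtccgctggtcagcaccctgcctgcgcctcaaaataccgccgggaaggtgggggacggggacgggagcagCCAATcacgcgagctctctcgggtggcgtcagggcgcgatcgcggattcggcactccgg
NANS: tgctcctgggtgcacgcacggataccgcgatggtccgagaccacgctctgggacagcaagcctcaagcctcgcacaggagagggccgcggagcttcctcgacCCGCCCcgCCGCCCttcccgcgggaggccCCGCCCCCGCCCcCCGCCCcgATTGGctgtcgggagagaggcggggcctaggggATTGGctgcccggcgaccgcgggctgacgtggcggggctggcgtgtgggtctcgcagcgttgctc
The first GNE run holds 1 CCAAT box and no GC box, and the second holds 1 of each. The NANS run holds 5 GC boxes and 2 CCAAT boxes. The full 250-base windows were 42% and 70% G or C for GNE and 74.4% for NANS, against a median of 58% over 35116 RefSeq windows of that length, of which 42.6% hold a GC box and 32.0% a CCAAT box. Of the members, 8 have windows in this table, with 18 windows in all. A GC box was found in 12 of them and a CCAAT box in 10, although several windows of 1 gene share bases. The palindromes TTCNNNGAA, bound by STAT proteins, and TGANTCA, bound by AP-1, are each in 6.57% of all windows and in 0 of the 18 member windows, which says only that these letters are not in these windows.

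The alpha2,3-sialyltransferases fall into those that act mainly on O-glycans and gangliosides and those that act mainly on N-glycans and lactosamine chains. ST3GAL1 caps the core galactose of mucin-type O-glycans. It was at 11.8, 10.8 and 11.2 FPKM in Control and 10.2, 7.76 and 8.96 FPKM with rhChem157S. The groups did not overlap, and treated replicate 2 was the lowest. The means were 11.2 ± 0.494 and 8.97 ± 1.22 FPKM, and the log2 fold change was -0.20 (SE 0.11, 95% interval -0.46 to 0.07, edgeR adjusted p = 0.325). It was -0.10 without rhChem157S replicate 2. A processed pseudogene, ST3GAL1P1, is annotated on chromosome 4 and was not analysed here, so that reads shared with it are uncertain.

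ST3GAL2 (chr16:70375978-70439237, minus strand) sialylates gangliosides and the same O-glycan core. It was at 9.25, 9.23 and 8.09 FPKM in Control and 9.11, 8.18 and 9.17 FPKM with rhChem157S, and the groups overlapped. The log2 fold change was 0.13 (SE 0.11, 95% interval -0.12 to 0.37, edgeR adjusted p = 0.489) after TMM, while the mean FPKM were 8.86 ± 0.664 and 8.82 ± 0.556. Scaled by library size alone its log2 fold change was -0.0064, so its sign depends on the scaling. With TMM it was 0.046 without rhChem157S replicate 3 and 0.065 without Control replicate 3. ST3GAL5 (chr2:85837120-85905199, minus strand) makes GM3, the first ganglioside of most cells. It was at 3.40, 2.73 and 2.54 FPKM in Control and 2.75, 1.97 and 1.35 FPKM with rhChem157S. Treated replicate 1 lay within the Control range, and the means were 2.89 ± 0.454 and 2.02 ± 0.699 FPKM. ST3GAL5 had a log2 fold change of -0.40 (SE 0.23, 95% interval -0.94 to 0.14, edgeR adjusted p = 0.330). It was -0.65 without rhChem157S replicate 1, -0.21 without replicate 3 and -0.26 without Control replicate 1.

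ST3GAL3 (chr1:43705824-43931165, plus strand) and ST3GAL4 (chr11:126355640-126440344, plus strand) sialylate the galactose of N-glycans and lactosamine chains, and ST3GAL4 also contributes to selectin ligands. ST3GAL3 was at 7.17, 7.05 and 7.84 FPKM in Control and 6.48, 7.22 and 3.75 FPKM with rhChem157S. Its treated mean of 5.82 ± 1.82 FPKM against 7.35 ± 0.427 FPKM rests on replicate 3. ST3GAL3 had a log2 fold change of -0.22 (SE 0.20, 95% interval -0.69 to 0.24, edgeR adjusted p = 0.517), and -0.02 without that library, against -0.41 without replicate 2. ST3GAL4 was at 6.49, 6.75 and 6.99 FPKM in Control and 5.39, 6.53 and 5.47 FPKM with rhChem157S. The groups overlapped through treated replicate 2. The means were 6.74 ± 0.249 and 5.80 ± 0.636 FPKM, and the log2 fold change was -0.09 (SE 0.12, 95% interval -0.37 to 0.19, edgeR adjusted p = 0.678). It was -0.019 without rhChem157S replicate 1 and -0.18 without replicate 2.

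ST3GAL6 (chr3:98732236-98821201, plus strand) acts on lactosamine chains and contributes to selectin ligands. It was the least abundant alpha2,3-sialyltransferase, at 1.80, 1.58 and 1.31 FPKM in Control and 1.34, 1.93 and 1.45 FPKM with rhChem157S. The groups overlapped, with means of 1.56 ± 0.247 and 1.57 ± 0.316 FPKM. ST3GAL6 had a log2 fold change of 0.14 (SE 0.22, 95% interval -0.37 to 0.65, edgeR adjusted p = 0.722), and -0.026 without rhChem157S replicate 2. It was 0.025 without Control replicate 3, and 0.26 without replicate 1 of either group. Of its 6288 exonic bases, 235 are shared with DCBLD2 and 107 with ST3GAL6-AS1 on the opposite strand. ST3GAL2 and ST3GAL3 share 590 and 113 exonic bases with antisense genes, and the strand setting is not given in the sources used here. On the same strand, where a strand setting separates nothing, ST3GAL3 shares 1951 of its 19475 exonic bases with the protein-coding gene AL451062.3 and ST3GAL6 shares 354 with the pseudogene PDLIM1P4. The FPKM imply shorter counted lengths, of 7920 bases for ST3GAL2, 6633 for ST3GAL3 and 4261 for ST3GAL6. Whether the shared bases of these genes were counted is therefore not known.

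**Figure D2:**
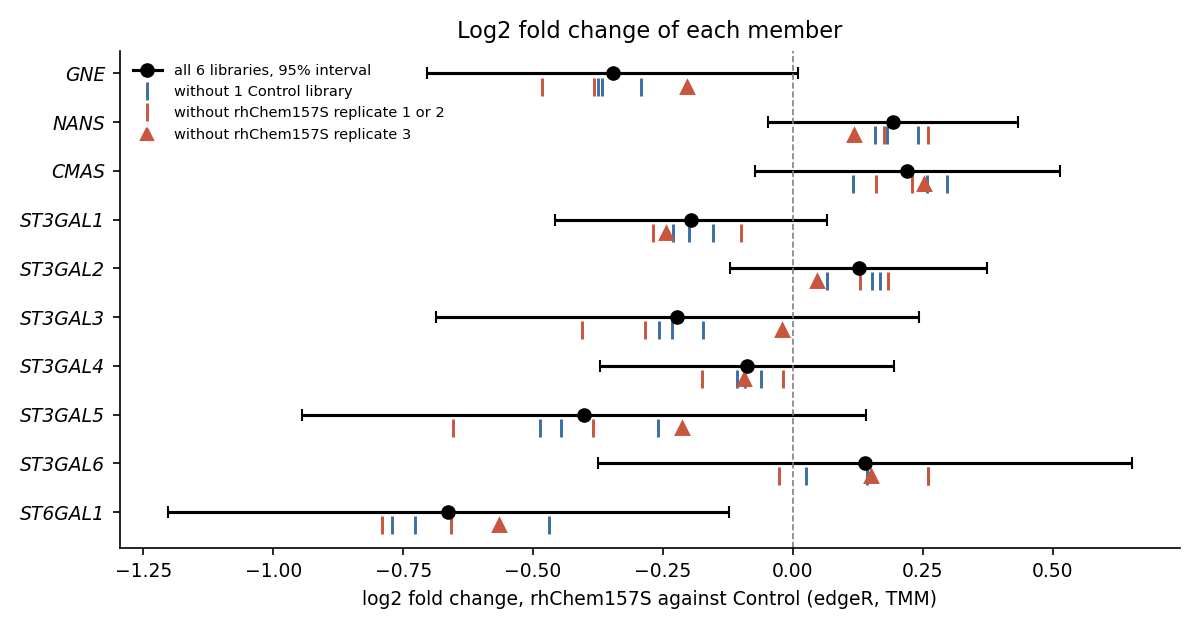
Log2 fold change of each gene, rhChem157S against Control, from edgeR with TMM. Black points with bars are all 6 libraries with 95% intervals, ticks leave out 1 library each (blue Control, red rhChem157S replicates 1 and 2) and red triangles leave out rhChem157S replicate 3. The interval of ST6GAL1, -1.20 to -0.12, is the only one of the 10 that does not include 0, and the estimates for ST3GAL3 and GNE move toward 0 without replicate 3, to -0.02 and -0.20.

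ST6GAL1 (chr3:186930485-187078553, plus strand) had the log2 fold change farthest from 0 of the 10 genes with all 6 libraries in edgeR. Without Control replicate 3 that of ST3GAL5 was farther from 0 (-0.49 against -0.47), and with limma on log2(FPKM + 1) that of GNE was (-0.424 against -0.416). ST6GAL1 encodes the main enzyme that places alpha2,6-linked sialic acid on the galactose of N-glycans, the linkage bound by the elderberry lectin SNA. Its level was 1.26, 1.38 and 1.89 FPKM in Control and 1.05, 0.871 and 0.700 FPKM with rhChem157S, from 125 to 325 counts per library. The groups were apart, with the lowest Control value at 1.26 and the highest treated value at 1.05 FPKM. The means were 1.51 ± 0.334 and 0.875 ± 0.177 FPKM (SD, n = 3). The log2 fold change of ST6GAL1 was -0.66 (SE 0.23, 95% interval -1.20 to -0.12), which is a fold of 0.63. Its p in edgeR's quasi-likelihood test was 0.0225 before and 0.163 after adjustment over 13311 genes. DESeq2 gave an adjusted p = 0.0707, the lowest of 16 alternative settings, which reached up to 0.397. Leaving out single libraries kept the log2 fold change between -0.79 and -0.47, and it was -0.57 without rhChem157S replicate 3 (edgeR adjusted p = 0.188). The median log2 fold change of the tested genes differed with level. It was -0.36 over the 1928 genes between 0.1 and 1 FPKM and -0.03 over the 5337 between 1 and 10 FPKM. Between 10 and 100 FPKM it was 0.08 over 5152 genes, and at 100 FPKM or more it was 0.25 over 542 genes. The mean of ST6GAL1 over all libraries lies in the range from 1 to 10 FPKM, near its lower end. The part of level in the value of ST6GAL1 was not tested.

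The stretch upstream of the ST6GAL1 start is shown because this gene was the only member with an unadjusted p under 0.05 in the main edgeR test. It is chr3:186930276-186930484, plus strand, on GRCh38.p14, taken and marked as for GNE and ending where the GENCODE gene begins.
ST6GAL1: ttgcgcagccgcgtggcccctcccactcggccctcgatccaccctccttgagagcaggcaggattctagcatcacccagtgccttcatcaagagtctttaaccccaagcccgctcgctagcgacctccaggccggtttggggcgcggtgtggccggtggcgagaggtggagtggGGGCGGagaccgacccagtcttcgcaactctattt
It holds 1 GC box and no CCAAT box. The full 250-base RefSeq window is 65.6% G or C and holds 2 GC boxes. Only 1 start of ST6GAL1 is in the RefSeq table, and other starts were not analysed here.

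Among ST6GAL1 and the 6 ST3GAL genes, each gene was described by its share of their summed FPKM. Other genes whose enzymes make an alpha2,6 linkage are not in that sum. One of them, ST6GALNAC6, had a Control mean of 30.9 FPKM, against 1.51 FPKM for ST6GAL1. The share of ST6GAL1 is therefore not the alpha2,6 part of all sialyltransferase transcripts. FPKM are relative abundances of transcripts and not of enzyme activity. ST6GAL1 made up 3.06%, 3.49% and 4.74% of the sum in Control and 2.90%, 2.53% and 2.27% with rhChem157S. The groups did not overlap, with means of 3.76% ± 0.872 and 2.57% ± 0.318. The difference was -1.20 percentage points (two-sided exact permutation test, p = 0.10, which 3 against 3 libraries cannot go below, adjusted p = 0.183 over the 11 shares, sums and ratio computed). It lay between -1.55 and -0.708 percentage points when single libraries were left out. The share of ST3GAL2 was 22.5%, 23.4% and 20.3% in Control and 25.1%, 23.7% and 29.7% with rhChem157S, again without overlap (exact permutation test, p = 0.10, adjusted p = 0.183). Its own mean level was nearly the same in both groups, at 8.86 FPKM in Control and 8.82 FPKM with rhChem157S. The mean of the sum that divides it was 40.2 FPKM in Control and 33.9 FPKM with rhChem157S. The shares of ST3GAL1, ST3GAL3, ST3GAL4, ST3GAL5 and ST3GAL6 overlapped between the groups, with exact p from 0.30 to 0.90.

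The summed level of the same 7 genes was 41.1, 39.5 and 39.8 FPKM in Control and 36.3, 34.5 and 30.8 FPKM with rhChem157S. The groups were apart, and the means were 40.2 ± 0.866 and 33.9 ± 2.78 FPKM. The size of that difference depends on the scaling. It was -6.29 FPKM as deposited and -3.03 FPKM after each library was divided by its TMM factor, where the sums were 39.7, 37.5 and 38.1 in Control and 36.3, 35.4 and 34.3 with rhChem157S. Both gave an exact two-sided permutation p = 0.10 and an adjusted p = 0.183. Summed over all sialyltransferases in the tables, the level was 93.1, 94.6 and 97.9 FPKM in Control and 85.7, 81.1 and 70.6 FPKM with rhChem157S (exact permutation test, p = 0.10, adjusted p = 0.183). This wider sum is as deposited and was not divided by the TMM factors. Those factors were 1.04, 1.05 and 1.05 in Control and 1.00, 0.973 and 0.898 with rhChem157S, so the size of its difference also depends on the scaling.

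**Figure D3:**
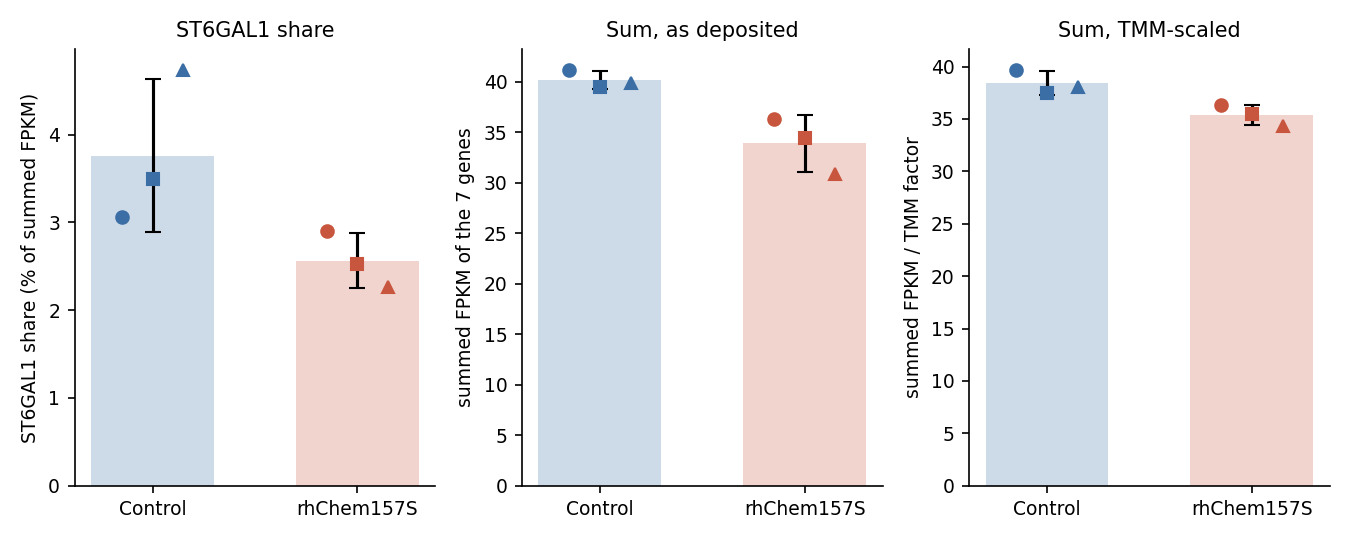
Bars are group means with SD (n = 3) and points are libraries (circle, square and triangle for replicates 1, 2 and 3, Control in blue and rhChem157S in red). From left, the ST6GAL1 share of the summed FPKM of 7 sialyltransferases in percent, that sum in FPKM as deposited, and the sum after division by each library's TMM factor. The groups are apart in each panel, and the difference in the sum goes from -6.29 FPKM to -3.03 FPKM with TMM.

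The other genes of the pathway were read from 6 lists around the members, of which 41 genes were tested. None of the 41 passed an adjusted p of 0.05 in edgeR. At an unadjusted edgeR p under 0.05, 6 were lower and 3 higher, which is 22.0% of the 41 and close to the 22.8% of all tested genes. The median log2 fold change was -0.02, with 23 genes below 0 and 18 above. DESeq2 called 1 gene lower and 1 higher, 4.88% of the 41 against 9.38% of all genes.

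Of the precursor and transport genes, 4 of 5 were tested and all 4 were below 0, with a median of -0.42. SLC17A5, the lysosomal exporter of free sialic acid, was at 10.2, 10.5 and 10.9 FPKM in Control and 6.65, 7.21 and 4.08 FPKM with rhChem157S. Its treated libraries were all far below the Control range. The log2 fold change of SLC17A5 was -0.70 (SE 0.18, 95% interval -1.11 to -0.28, edgeR adjusted p = 0.108). DESeq2 gave an adjusted p = 0.0104, and the range over 16 alternative settings was 0.000242 to 0.377, under 0.05 in 3 of them. Without rhChem157S replicate 3 SLC17A5 passed edgeR at -0.52 with an adjusted p = 0.0392, in a fit that called 415 of 13521 genes. NANP, the phosphatase between NANS and CMAS, had a log2 fold change of -0.29 (edgeR adjusted p = 0.203) and no overlap of its groups. SLC35A1, which carries the CMP-sialic acid made by CMAS into the Golgi, was at -0.05 (edgeR adjusted p = 0.848), a gene named after its value was seen.

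Of the genes that supply UDP-GlcNAc to GNE, 5 of 6 were above 0, with a median of 0.25. GFPT2, an isoform of the enzyme that opens the hexosamine pathway, was at 20.5, 23.5 and 28.1 FPKM in Control and 23.0, 44.1 and 53.3 FPKM with rhChem157S. Treated replicate 1 lay within the Control range. The log2 fold change of GFPT2 was 0.89 (SE 0.31, 95% interval 0.16 to 1.63, edgeR adjusted p = 0.165). DESeq2 gave an adjusted p = 0.0380, and the range over 16 alternative settings was 0.0266 to 0.417, under 0.05 in 2 of them. Without rhChem157S replicate 1 GFPT2 passed edgeR at 1.18 with an adjusted p = 0.0266, in a fit that called 844 of 13517 genes. Without replicate 3 DESeq2 gave 0.58 with an adjusted p = 0.364. GNPNAT1, which acetylates glucosamine phosphate, was at 0.45 (edgeR adjusted p = 0.205).

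Of 13 other sialyltransferases, 7 were tested, 6 of them below 0, with a median of -0.53. Of the 7, ST8SIA1, ST8SIA6, ST6GALNAC3 and ST6GALNAC5 were of low level, with Control means of 0.0558 to 0.486 FPKM. Among the 1928 tested genes between 0.1 and 1 FPKM, 1380 were below 0 and the median was -0.36. ST6GALNAC3 and ST6GALNAC5 lie in that range by their mean over all libraries, and ST8SIA1 and ST8SIA6 lie under it. The part of level in the median of this list was not tested. ST6GALNAC6, which sialylates gangliosides through an alpha2,6 linkage, was the most abundant of them and was at 30.8, 30.1 and 31.7 FPKM in Control and 26.8, 24.7 and 19.7 FPKM with rhChem157S. Its groups did not overlap, and its log2 fold change was -0.26 (edgeR adjusted p = 0.179). ST6GALNAC3 was at -0.61 (edgeR adjusted p = 0.194). ST6GAL2, the other enzyme that makes the linkage of ST6GAL1, was listed at no more than 0.00892 FPKM, so that ST6GAL1 was the source of nearly all transcripts of that pair in both groups. ST6GALNAC1, ST8SIA2, ST8SIA4 and ST8SIA5 were also too low to be tested.

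The genes that remove or modify sialic acid had 2 of 5 below 0 and a median of 0.17. Those with the smallest p were CTSA, the protective protein of the lysosomal sialidase, at 0.17 (edgeR adjusted p = 0.242) and NEU3, the plasma membrane sialidase, at 0.29 (edgeR adjusted p = 0.271). The genes that branch and galactosylate N-glycans, the acceptors of ST6GAL1, ST3GAL3 and ST3GAL4, had 7 of 9 above 0 and a median of 0.10. MGAT2 was at 0.30 (edgeR adjusted p = 0.182) and B4GALT2 at 0.20 (edgeR adjusted p = 0.228). The genes of glycolipid synthesis and breakdown, which make and degrade the substrates of ST3GAL5 and ST3GAL2, had 8 of 10 below 0 and a median of -0.18. GLB1, the lysosomal beta-galactosidase, was at -0.32 (edgeR adjusted p = 0.140), and UGCG, the first enzyme of glycosphingolipid synthesis, was also at -0.32 (edgeR adjusted p = 0.165).

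**Figure D4:**
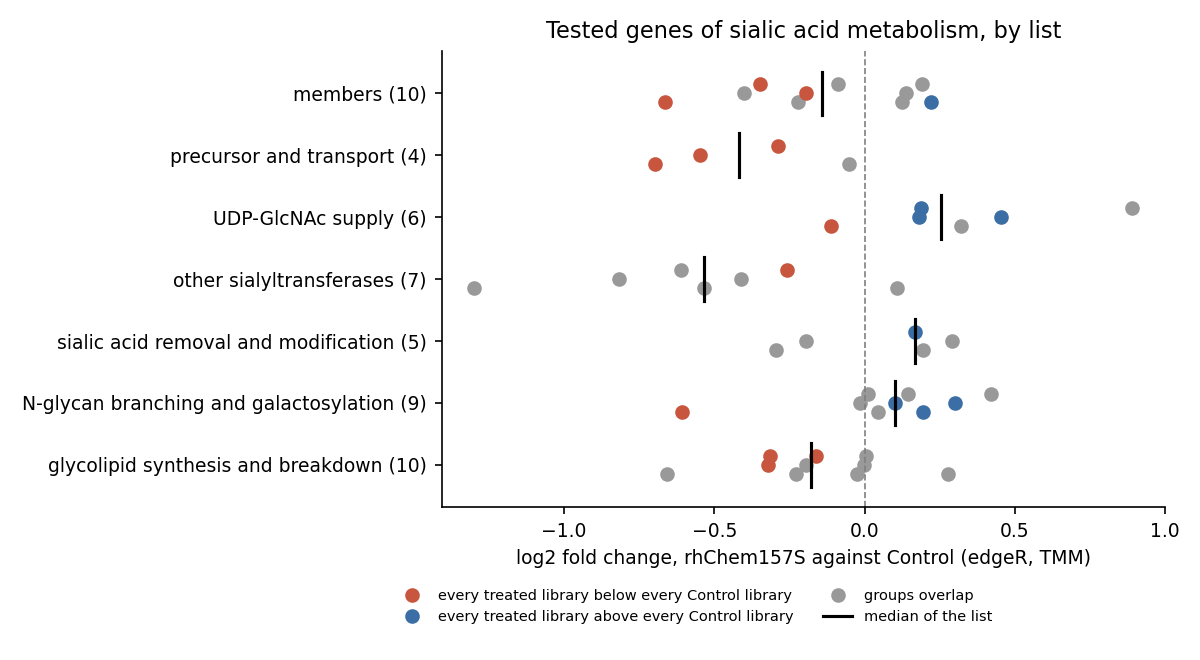
Log2 fold change (rhChem157S against Control, edgeR with TMM) of each tested gene of the members and of the 6 lists around them, with the number tested in brackets and the list median as a black bar. Red and blue points are genes whose TMM-scaled groups do not overlap, lower and higher. List medians run from -0.53 for the other sialyltransferases to 0.25 for UDP-GlcNAc supply, with the members at -0.14. The median of all tested genes, which is not drawn, was 0.01.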

How the data were processed

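RNA of 12Z cells was sequenced in 3 Control and 3 rhChem157S libraries, which the labels call biological replicates without saying whether cultures were separate, so p-values measure the spread between these libraries. The authors trimmed reads with fastp, aligned them to GRCh38.p13 with HISAT2 and counted them with HTSeq-count. The deposited counts are unnormalized, and the deposited FPKM are those counts per gene length and library total (76321 of 76321 values with at least 20 counts were within 0.001 of 1 length per gene). The strand setting and annotation release are not given in the sources used here.

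Counts were tested with edgeR 4.0.16 in R 4.3.3 (TMM, filter on low counts with the group, quasi-likelihood test, Benjamini-Hochberg adjustment over 13311 genes). SE is the log2 fold change over the root of F. Alternatives were DESeq2 1.42.0, which the authors used, limma 3.58.1 on FPKM (log2 after adding 1 or 0.1), other scaling and filters, the replicate number as a block and each library left out. Shares and sums were tested by exact permutation. The fit was checked on simulated counts with 200 genes changed by 1 log2 unit, of which edgeR recovered 180 with 5 false calls. The simulation gave all genes the same dispersion and had no library that stood apart. It therefore does not measure the power of the fit in these data. The edgeR setting legacy=FALSE, DESeq2 without rhChem157S replicate 3, the sums, the shares of the ST3GAL genes, the ratio of NANS to GNE and the stromal sum without VIM were added after the data were seen.

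The members and lists were chosen with earlier results of these data known. Named genes are all members and, per list, those past the adjusted threshold or otherwise the 2 with the smallest p, and exceptions are stated. Sialyltransferases named as too low to test have 0 to 8 counts per library. Lectin blots and other assays of the study were not analysed here.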

Additional observations from a re-analysis of the deposited data

How the results depend on the processing

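No member passed an adjusted p of 0.05 in any of the 16 alternative settings, and 8 of the 10 kept the sign of their log2 fold change in all 16. The sign of ST3GAL2 turned with library size scaling (-0.0064), limma on log2(FPKM + 1) (-0.0050) and limma on log2(FPKM + 0.1) (-0.0055). The sign of ST3GAL6 turned without rhChem157S replicate 2 (-0.026, against up to 0.26 with other libraries left out). The median of the members moved from -0.14 to -0.27 with library size scaling, -0.25 and -0.28 with limma at the higher and lower pseudocount, and -0.053 with DESeq2 without rhChem157S replicate 3. The median of all tested genes moved as well. It went from 0.01 to -0.12 with library size scaling, and to -0.083 and -0.12 with limma at the higher and lower pseudocount. With DESeq2 without rhChem157S replicate 3 it was 0.00093. Leaving out single libraries gave the members a median from -0.16 to -0.057, with the value nearest 0 without rhChem157S replicate 3, and 6 to 7 of them below 0. ST6GAL1 was farthest from 0 except without Control replicate 3 (ST3GAL5) and with limma at the higher pseudocount (GNE). The cause of these moves was not tested.

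Over all genes, edgeR called 4, no filter on low counts 17, legacy=FALSE 15, limma 179 and 23 at the higher and lower pseudocount, DESeq2 1319, and DESeq2 without rhChem157S replicate 3 called 1737. Leaving out 1 library gave 0 calls, except 844 without rhChem157S replicate 1 and 415 without replicate 3. The same-numbered libraries correlated at 0.241, 0.00147 and 0.247 in their deviations from the group means. Replicates 1 and 3 of rhChem157S correlated best with the Control library of their own number. For rhChem157S replicate 2 all correlations were near 0, from -0.027 with Control replicate 1 to 0.024 with Control replicate 3. The labels state no pairing, and the main test used none. With the replicate number as a block, 1 gene was called among all tested genes and no member, and the median of the members was -0.15. In that edgeR test ST3GAL5 had an unadjusted p = 0.0194 (adjusted p = 0.135) and ST6GAL1 an unadjusted p = 0.0466 (adjusted p = 0.191). With 3 libraries per group, the permutation tests could not pass 0.05.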
